A study of Rattus norvegicus with 4 samples.

Results

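Fatty acid-binding proteins, the lipogenic enzymes Fasn and Scd, and hepatic lipase (Lipc) were examined in rat liver 12 h after ligation of the common bile duct. The set held every probe named Scd, Fasn or Lipc in the platform's probe table, and every probe whose symbol was Fabp followed by a digit. This gave 9 of 1936 probes and 7 of 958 named genes. Fabp5 and Fabp3 had 2 probes each, and Fabp4, Fabp7, Scd, Fasn and Lipc had 1 each. Fabp5, Scd, Fasn and Lipc were chosen by their ligation values on these same arrays, so all ligation values of the set are given as descriptions without a test.

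Livers came from male Sprague-Dawley rats that were fed freely before and after surgery under ether. In the ligated group the bile duct was tied between the liver and the gut, and in the sham group it was exposed without being tied. RNA of the right lateral lobe of 3 rats per group was pooled, so differences among animals were not measured. Each of 4 glass-slide cDNA arrays carried both pools, with the ligated pool in Cy5 on arrays 1 and 3 and in Cy3 on arrays 2 and 4. Nothing in the labels says that the arrays are more than repeated hybridisations of 1 pair of pools, and p-values then measure only the spread between arrays, which may be technical. Whole liver RNA does not separate a change in RNA per cell from a change in the number of cells of a type. Because the table holds ratios only, the presence of liver markers could not be read as a level.

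Values are log ratios as the authors deposited them, minus the median of each array, and are called centred. Each ratio was taken as ligation over sham. The labels list the ligated pool as the second channel, which makes that reading likely, but no source states it. Nor does any source give the log base, which was taken as 2. The deposited columns had medians of -1.26, 0.43, -0.96 and 0.26 on arrays 1 to 4, so the zero point is a choice. Centring raised the mean of every gene by the same amount, and the median gene stood at -0.39 before and -0.013 after it. Arrays of the same dye orientation correlated at r = 0.93 and 0.94 over all probes. Arrays of opposite orientation correlated at -0.45, -0.36, -0.35 and -0.28, so the direction of each value below rests on the channel order and is not settled by the arrays. The other reading, Cy5 over Cy3, turns the sign of arrays 2 and 4, and its values are given beside the members and the genes of the lists.

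Of 12 hepatocyte markers, 5 were measured, with ligation values between 0.098 (Apob) and 0.38 (Apoa1). Leaving out 1 array moved Apob between -0.081 and 0.28. Of the 5, Ttr, Tf, Apoa1 and Serpina1 passed as higher at limma's adjusted p under 0.05, as did 11.7% of all genes. The centred values of Ttr, Tf, Apoa1 and Apob were above 0 on both arrays with ligation in Cy5 and below 0 on both others. Serpina1 was above 0 on all arrays, but its 2 probes lay at 0.032 and 0.38. None of the 4 passed as higher without centring. The call of Ttr was also lost without array 1, 2 or 4 (0.20, 0.26 and 0.25, adjusted p = 0.0841, 0.089 and 0.115), and that of Serpina1 without any 1 of the 4 arrays (adjusted p from 0.0745 to 0.24). Print-block centring also ended the call of Ttr (0.15, adjusted p = 0.121), and that of Serpina1 was lost with each array centred on probes whose dye term lay in its top 25% (0.28, adjusted p = 0.054). This upper-quartile centring was chosen after seeing the data. In the other reading Ttr was at 0.69, Tf at 0.63, Apoa1 at 0.80 and Apob at 0.54, and Serpina1 was lower at -0.19 (adjusted p = 0.0234).

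Fatty acid-binding proteins are small cytosolic carriers that bind long-chain fatty acids and deliver them to membranes, enzymes and nuclear receptors. Fasn builds palmitate from acetyl-CoA and malonyl-CoA, and Scd places the first double bond in saturated acyl chains. Both are classical targets of the sterol regulatory element-binding protein SREBP-1c and of the liver X receptors. Lipc is a lipase made by hepatocytes that acts on phospholipids and triglycerides of high-density lipoproteins and remnant particles.

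The upstream sequence of a lower and of a higher member is shown to set the liver-restricted gene Lipc beside the lipogenic gene Scd. The 250 bases before the tabulated RefSeq start are printed on the gene's strand, 5′ to 3′, with capitals for motif matches. The Lipc window is chr8:80516286-80516535 and the Scd window chr1:253231732-253231981, both on the minus strand of GRCr8.
Lipc: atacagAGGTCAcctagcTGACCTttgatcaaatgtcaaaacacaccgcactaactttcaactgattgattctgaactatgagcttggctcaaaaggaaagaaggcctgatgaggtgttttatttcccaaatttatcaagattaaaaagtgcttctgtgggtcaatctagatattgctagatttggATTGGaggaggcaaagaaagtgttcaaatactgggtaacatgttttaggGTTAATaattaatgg
Scd: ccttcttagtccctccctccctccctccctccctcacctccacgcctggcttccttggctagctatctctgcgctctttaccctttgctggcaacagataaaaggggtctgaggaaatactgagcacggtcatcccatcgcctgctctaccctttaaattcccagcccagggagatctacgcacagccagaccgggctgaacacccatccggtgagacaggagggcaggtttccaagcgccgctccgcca
The motifs were searched on both strands, without overlap among the matches found. They were the CCAAT box (CCAAT), the TATA box (TATAAA), the nuclear receptor half-site (AGGTCA), the core of a sterol regulatory element (CACCCCA) and the HNF1 half-site (GTTAAT). The Lipc window held the HNF1 half-site from 15 to 10 bases before the start, a CCAAT box on the opposite strand and 2 nuclear receptor half-sites. Of 33469 windows of this length, 6.45% held the HNF1 half-site, 34.0% a CCAAT box, 14.1% a nuclear receptor half-site, 12.9% a TATA box and 5.9% the sterol element core. HNF1 factors drive many hepatocyte genes, and its half-site was chosen after the Lipc sequence had been seen. No match to the listed letters was found in the Scd window, which says only that these letters are not there. RefSeq's gene interval begins further upstream for both genes, so the windows lie wholly (Scd) or partly (Lipc) inside the annotated genes.

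Fabp5, the epidermal form that is also made by macrophages and endothelium, had the highest value of the 958 genes. Its probe 1526 was at 2.55, 1.25, 2.46 and 1.35 on arrays 1 to 4. The ligated pool was higher on each array, and the values were higher where that pool was in Cy5. Probe 1513 was at 1.76, 1.09, 1.59 and 0.98. It too was above 0 on all 4 arrays and below probe 1526 on each of them. Averaged over probes, Fabp5 was at 1.63 ± 0.07 (SE of the fit, 4 arrays), which is 3.09-fold higher after ligation. The SE of the fit borrows from the spread of all genes and leaves out the difference between dye orientations. The SD of Fabp5 over the 4 arrays was 0.54.

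The rank of Fabp5 did not come from the zero point, since ranks within an array are equal with and without centring. Among all 1936 probes, probe 1526 ranked first on arrays 2, 3 and 4 and ranked 2 on array 1. Probe 1513 ranked between 2 and 58. As deposited, probe 1526 was at 1.29, 1.68, 1.50 and 1.61 and probe 1513 at 0.50, 1.51, 0.64 and 1.24, a mean of 1.24 for the gene or 2.37-fold. Both probes stayed above 0 on every array on that scale. Under the Cy5 over Cy3 reading Fabp5 would be at 0.46 and rank 274 of the 958 genes, since that reading reverses the order of probes on arrays 2 and 4.

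**Figure D1:**
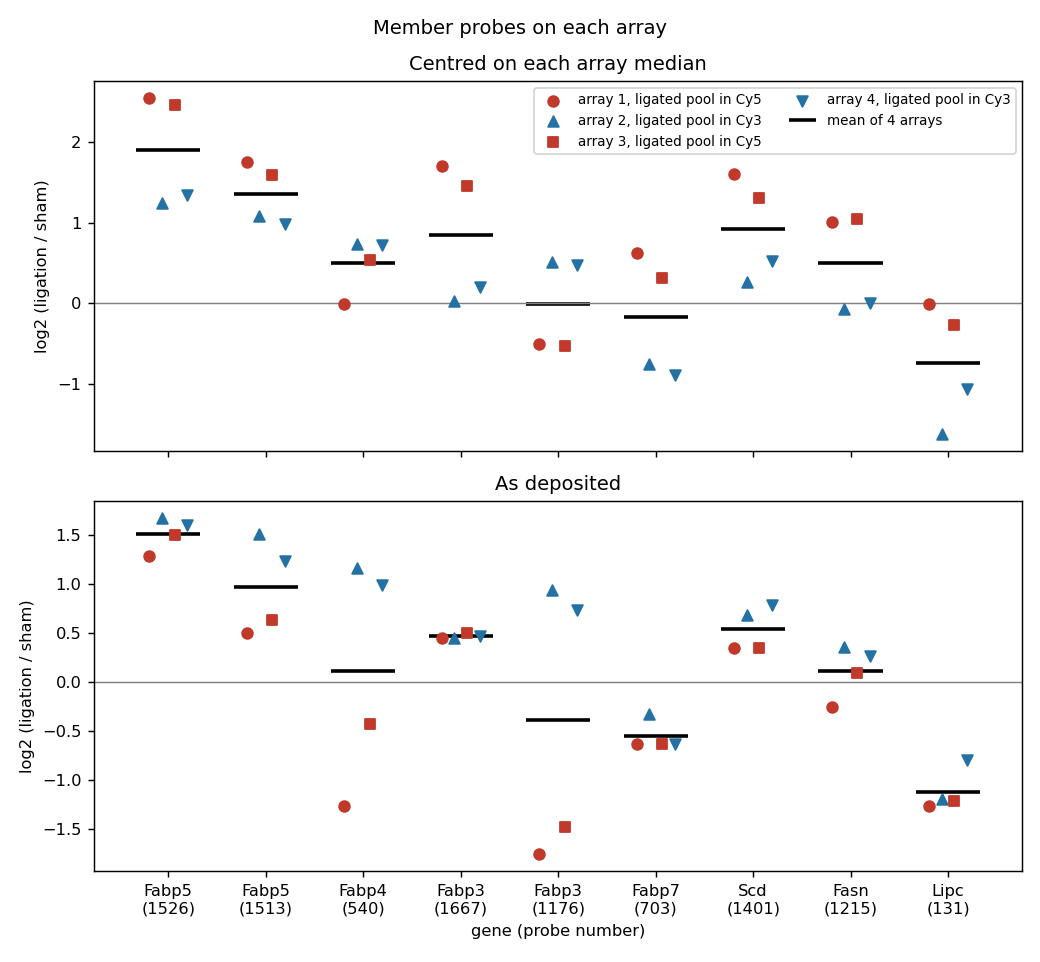
Log2 ratio of ligation over sham for the 9 probes of the set on each of the 4 arrays, centred on the array median (top) and as deposited (bottom). Red symbols are arrays with the ligated pool in Cy5, blue symbols those with it in Cy3, and black lines the mean of 4 arrays. Both Fabp5 probes lie above 0 on all arrays in both panels, and Lipc lies below 0 on all arrays in both.

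The other measured binding proteins did not share the size of Fabp5. Fabp4, the adipocyte and macrophage form, was at -0.0078, 0.74, 0.53 and 0.73 on arrays 1 to 4, with a mean of 0.50 ± 0.09. It was near 0 on array 1 and above 0 on the other 3. Without array 3 the ligation value, with both dye orientations weighted equally, was 0.36. As deposited its values were -1.27, 1.16, -0.42 and 0.99, so its sign followed the dye on that scale and its mean was 0.12. In RefSeq's gene order Fabp4 and Fabp5 belong to one cluster with Fabp12, Fabp9 and Pmp2.

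Fabp3, the heart and muscle form, was measured by 2 probes that disagreed. Probe 1667 was at 1.71, 0.027, 1.46 and 0.21, a mean of 0.85 ± 0.08. Probe 1176 was at -0.50, 0.51, -0.53 and 0.48, a mean of -0.0099 ± 0.08. The first was above 0 on all arrays, and the second was below 0 on both arrays with ligation in Cy5 and above it on both others. The gene mean of 0.42 ± 0.07 therefore averages a higher probe and one with no net difference.

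Centring moves both Fabp3 probes equally on an array, so their difference on each array was the same on the deposited scale. As deposited, probe 1667 read 0.45, 0.45, 0.50 and 0.47, nearly the same number on all 4 arrays. Centred, it averaged 1.58 with ligation in Cy5 and 0.12 with ligation in Cy3. Probe 1176 read -1.76, 0.94, -1.48 and 0.74 as deposited, so its sign followed the dye. Among 261 genes with exactly 2 probes, the median difference between probes was 0.098 in the ligation value. The difference of 0.86 for Fabp3 was reached by 6 of them (2.3%), and the 0.55 of Fabp5 by 19 (7.28%). Which Fabp3 probe measures the transcript was not tested.

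Fabp7, the brain form made by glia, was at 0.62, -0.75, 0.32 and -0.89, with a mean of -0.17 ± 0.08. Its centred values changed sign with the dye orientation. As deposited they were -0.63, -0.32, -0.63 and -0.63, all below 0. No probe with a single symbol was named Fabp1, the main form of hepatocytes.

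Scd was the higher of the lipogenic enzymes. It was at 1.61, 0.26, 1.30 and 0.53 on arrays 1 to 4, a mean of 0.93 ± 0.08 or 1.90-fold, and ranked 5 from the top of the 958 genes. The ligated pool was higher on every array, and by more where it was in Cy5. As deposited Scd was at 0.35, 0.69, 0.35 and 0.79, again above 0 on all arrays, with a mean of 0.55. It would be at 0.53 and rank 237 under the Cy5 over Cy3 reading. Scd lies beside Scd2, Scd3 and Scd4 in RefSeq's gene order, and cDNA probes of such related desaturases can bind each other's transcripts. Scd2 itself was at 0.59, -0.58, 0.31 and -0.68, a mean of -0.090 ± 0.08 (limma adjusted p = 0.479).

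Fasn was higher on average but not on every array. Its values were 1.01, -0.071, 1.05 and 0.0065, a mean of 0.50 ± 0.07 or 1.41-fold. Both arrays with ligation in Cy5 stood near 1.03 (their mean), and both with ligation in Cy3 stood near 0, with a mean of -0.032. As deposited Fasn was at -0.25, 0.35, 0.096 and 0.27, with a mean of 0.12, and array 1 was below 0. Its higher value thus depended on the zero point more than that of Scd.

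Lipc was the lower member. It was at -0.0061, -1.62, -0.26 and -1.06 on arrays 1 to 4, a mean of -0.74 ± 0.09 or 1.67-fold lower, and ranked 28 from the bottom. The values were below 0 on all arrays, barely so on array 1. As deposited they lay closer together, at -1.26, -1.19, -1.22 and -0.80, a mean of -1.12. Without array 2 the centred ligation value, with both dye orientations weighted equally, was -0.60, and without array 4 it was -0.88. Lipc would be at 0.60, the opposite direction, and rank 185 from the top under the Cy5 over Cy3 reading, with Fabp4 at -0.24, Fabp3 at 0.11, Fabp7 at 0.65 and Fasn at 0.53.

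On the 4 centred arrays, 4 of the 7 genes kept 1 sign (Fabp5, Scd and Fabp3 higher, Lipc lower). Of the 958 genes 12.6% did so, 5.53% higher and 7.1% lower. Fabp3 did so as the mean of its probes, of which 1 changed sign with the dye orientation. As deposited 4 kept 1 sign as well, Fabp5 and Scd above 0 and Lipc and Fabp7 below, where 1.25% of genes were above and 27.3% below 0 on all arrays. Fabp5, Scd and Lipc were the members that kept their sign on both scales. These counts hold for the ligation over sham reading. Centred and read as Cy5 over Cy3, Fabp7 was the 1 member with a single sign, at 0.62, 0.75, 0.32 and 0.89, where 37.0% of genes were above 0 and 31.4% below 0 on all arrays. By limma's adjusted p, 6 of the 7 genes would pass in the ligation term, 5 higher and 1 lower, against 27.1% of all genes. Of all genes, 11.7% passed higher and 15.4% lower. Since these values chose Fabp5, Scd, Fasn and Lipc, nothing is read from that count or from the counts of signs above. Without centring 1.15% of all genes passed higher and 82.6% lower, and read as Cy5 over Cy3 the shares were 45.2% and 32.8%.

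**Figure D2:**
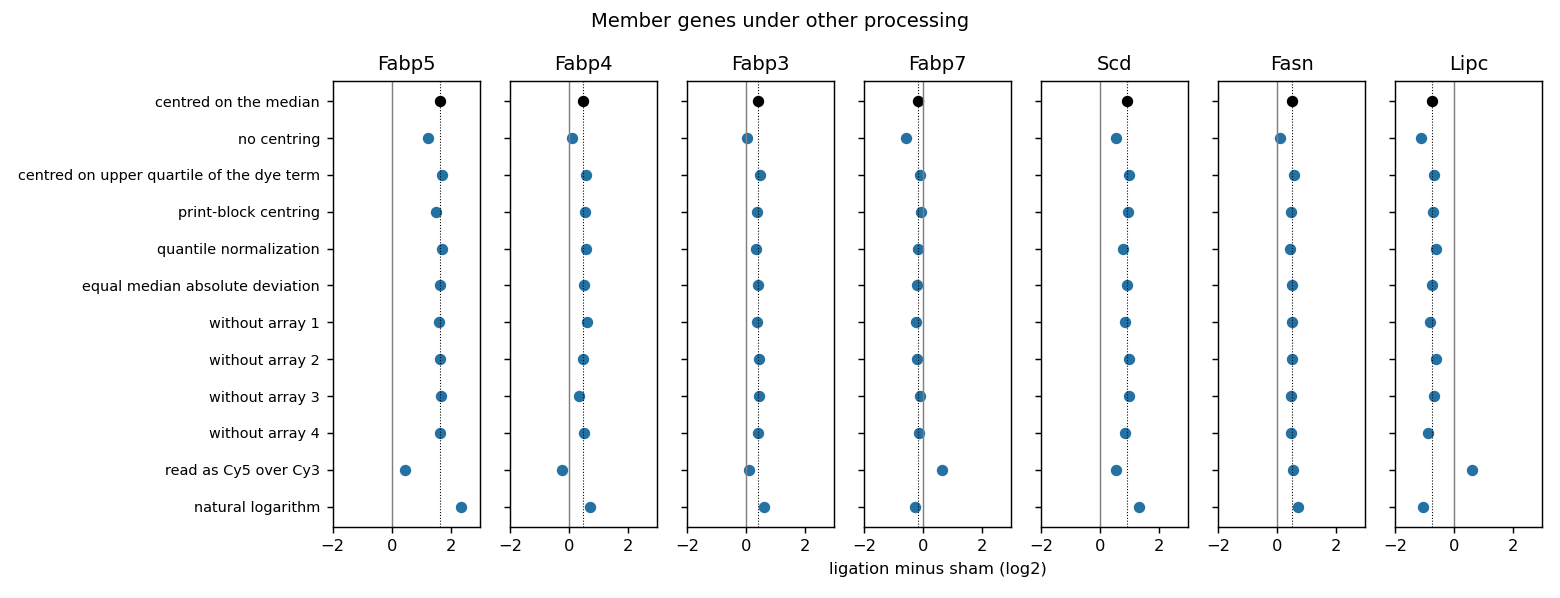
Ligation minus sham (log2, x axis) of the 7 genes under each way of processing (rows). The black point and dotted line mark the value centred on the array median, and the grey line marks 0. Fabp5 and Scd lie above 0 in every row, and Lipc lies below 0 in every row but the one read as Cy5 over Cy3.

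The dye term of the fit is 0.5 times the difference between arrays with ligation in Cy5 and those with it in Cy3. It equals the ligation value of the Cy5 over Cy3 reading, and genes with large ligation values had high dye terms, so it is not independent of how the members were chosen and is described without a test. With centring, limma's adjusted p would pass for 6 of the 7 genes, 5 positive and 1 negative, against 78.0% of all genes (45.2% positive), and nothing is read from that count. The term was 0.46 for Fabp5, 0.53 for Scd, 0.53 for Fasn, 0.60 for Lipc, 0.65 for Fabp7, 0.11 for Fabp3 and -0.24 for Fabp4, the member with a negative term. These signs hold against the centre of each array. As deposited the median gene was at -0.63, while Fabp7 was at -0.080, Lipc at -0.12, Fasn and Scd at -0.19 and Fabp5 at -0.26. Fabp4 was at -0.96 on that scale. Lipc, which was lower, and Scd and Fasn, which were higher, thus had dye terms of much the same size.

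**Figure D3:**
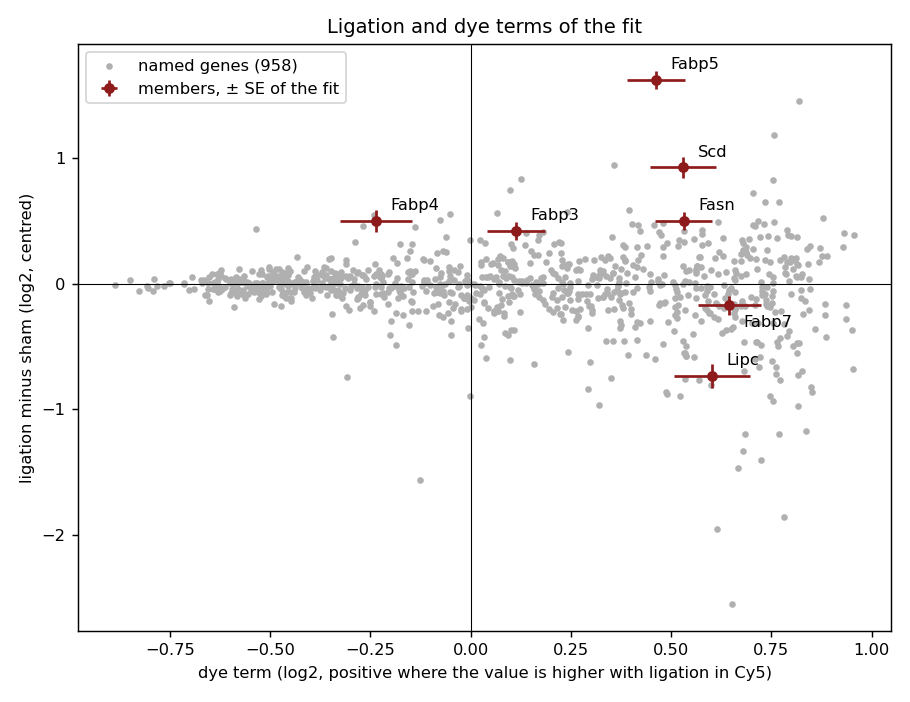
Dye term (x axis) and ligation term (y axis), both log2, of the 958 named genes (grey) and the 7 members (dark red, bars ± SE of the fit). Fabp5 is the highest point of the plot, and Scd, Fasn, Fabp7 and Lipc share dye terms between 0.53 and 0.65 at ligation terms from 0.93 to -0.74. The 2 axes exchange in the Cy5 over Cy3 reading.

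Whether other genes of fatty acid and triglyceride synthesis passed as higher depended on the centring and on the reading of the ratio. Of 27 listed genes 6 were measured, and none of the 4 outside the set passed limma's adjusted p under 0.05 (1 had an unadjusted p under 0.05, Fads2). Of all genes 11.7% passed as higher and 15.4% as lower. Besides Scd2, these were the NADPH-producing malic enzyme Me1 (0.13 ± 0.08, adjusted p = 0.301), the triglyceride-forming acyltransferase Dgat1 (0.15 ± 0.07, adjusted p = 0.145) and the desaturase Fads2 (0.18 ± 0.08, adjusted p = 0.0964). The median of the 4 was 0.14, against -0.013 for all genes. Without centring Scd2, Dgat1 and Fads2 passed as lower (-0.47, -0.23 and -0.20, adjusted p = 0.001, 0.0441 and 0.0469), as did 82.6% of all genes. Dgat1 passed as higher with print-block centring (0.19, adjusted p = 0.0443), and Fads2 with upper-quartile centring (0.25, adjusted p = 0.0465). With the ratio read as Cy5 over Cy3, Scd2 (0.54, adjusted p = 3.35e-05) and Fads2 (0.67, adjusted p = 6.93e-06) passed as higher, as large as Scd and Fasn at 0.53 each. In that reading Me1 was lower (-0.36, adjusted p = 0.00127) and Dgat1 was at 0.026 (adjusted p = 0.75). There 45.2% of all genes passed as higher and 32.8% as lower, and nothing is read from these counts.

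Of 21 lipases and lipoprotein receptors 3 were measured. Lpl, the lipase of muscle and adipose capillaries, was at 0.0072 ± 0.07 (adjusted p = 0.969) beside the lower Lipc. The high-density lipoprotein receptor Scarb1 was at 0.82, 0.088, 0.86 and -0.099 on arrays 1 to 4, and its mean of 0.42 ± 0.07 passed (adjusted p = 0.000823). Its value was high on the arrays with ligation in Cy5 and near 0 on the others. Without centring Scarb1 was at 0.036 and did not pass (adjusted p = 0.743). The Cy5 over Cy3 reading put Scarb1 at 0.42 and Lpl at -0.52 (adjusted p = 3.35e-05).

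Both measured genes of fatty acid uptake and activation outside the set passed as lower, as did 15.4% of all genes. Acsl1, which couples fatty acids to coenzyme A, was at -1.15, -2.53, -1.53 and -2.61, a mean of -1.96 ± 0.08 (adjusted p = 5.1e-09), and its 2 probes lay at -1.96 and -1.95. Acsl1 was low on all 4 arrays, while the carrier Fabp5 was high on all 4. Read as Cy5 over Cy3, both were above 0, Acsl1 at 0.61 (adjusted p = 1.88e-05) and Fabp5 at 0.46. The fatty acid translocase Cd36 was at -0.27, -0.10, -0.34 and -0.85, a mean of -0.39 ± 0.10 (adjusted p = 0.0119). The Cd36 call was lost under several settings. Leaving out array 1 gave -0.41 (adjusted p = 0.0858), leaving out array 3 gave -0.38 (adjusted p = 0.116) and leaving out array 4 gave -0.21 (adjusted p = 0.232). Upper-quartile centring gave -0.32 (adjusted p = 0.145), and the Cy5 over Cy3 reading gave 0.085 (adjusted p = 0.463). The retinoic acid carrier Crabp2, a relative of the Fabp family, was at 0.050 ± 0.07 (adjusted p = 0.698), and at -0.51 read as Cy5 over Cy3.

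Among 7 measured regulators of lipid genes, 2 were higher, 2 lower and 3 did not pass. The shares over all genes were 11.7% higher and 15.4% lower. The liver X receptor Nr1h2 (LXR-beta) was at 0.65 ± 0.07 (adjusted p = 2.37e-05) and its partner Rxra at -0.50 ± 0.07 (adjusted p = 0.000196). The 2 Rxra probes differed, at -0.90 and -0.087. FXR (Nr1h4), which senses bile acids, was at -0.64, and SHP (Nr0b2), the repressor it induces, at 0.65. On arrays 1 to 4 Nr1h2 was at 1.49, -0.19, 1.35 and -0.048, and Nr0b2 at 1.63, -0.13, 1.13 and -0.034. Both were thus above 0 only where ligation was in Cy5. Rxra was at 0.12, -1.03, -0.036 and -1.04, and Nr1h4 was below 0 on every array. Pparg, the adipogenic receptor whose targets include Fabp4, was at 0.11 ± 0.07 (adjusted p = 0.341), Rxrg at 0.19 ± 0.07 (adjusted p = 0.0821) and the CCAAT-binding subunit Nfyb at 0.036 ± 0.07 (adjusted p = 0.8). Read as Cy5 over Cy3, Nr1h2 and Nr0b2 stayed above 0 (0.77 and 0.73), and Rxra, Nr1h4 and Acsl1 changed sign (0.54, 0.16 and 0.61). The 3 regulators that had not passed did so in that reading, with Rxrg at 0.81 (adjusted p = 4.96e-06), Nfyb at -0.79 (adjusted p = 4.96e-06) and Pparg at -0.54 (adjusted p = 1.81e-05). Its tally was 4 higher, 2 lower and 1 not past the threshold, Nr1h4. In that reading 45.2% of all genes passed as higher and 32.8% as lower, and nothing is read from either tally. Rxrg also passed with upper-quartile centring (0.26, adjusted p = 0.0484).

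**Figure D4:**
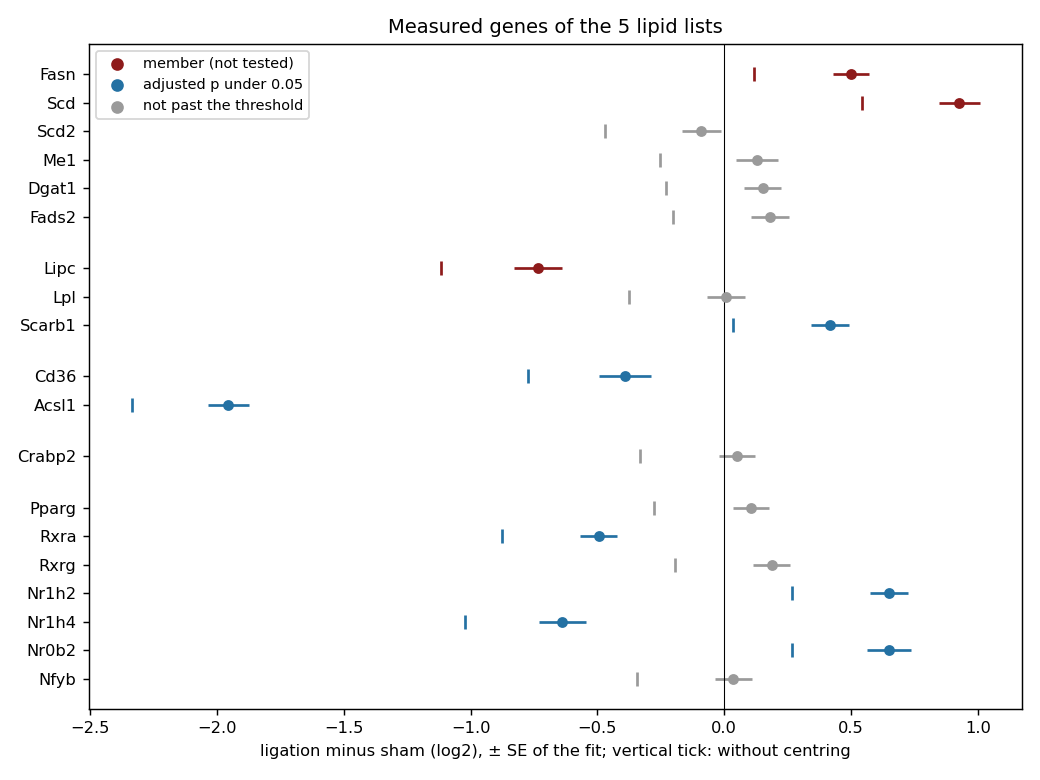
Ligation minus sham (log2, x axis, bars ± SE of the fit) of the measured genes of the 5 lipid lists, with vertical ticks at the values without centring. The members shown are Scd, Fasn and Lipc, with Scd the highest of them and Lipc the lowest. Acsl1 is the lowest gene shown. In this reading of the ratio the 4 other genes of fatty acid and triglyceride synthesis lie between -0.090 and 0.18.

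Cell types that make Fabp5 or Fabp4 were followed through their own markers. Of 16 macrophage markers 3 were measured. Tnf (-0.57 ± 0.08, adjusted p = 0.000118) and Cd53 (-0.27 ± 0.08, adjusted p = 0.0179) were lower, and Spp1 was at 0.14 (adjusted p = 0.212). Of 9 adipocyte markers 3 were measured. Besides Fabp4 these were Lpl and the glucose transporter Slc2a4 (-0.10 ± 0.07, adjusted p = 0.352), neither of which passed. Of 8 endothelial markers 4 were measured, with Ece1 (-1.18 ± 0.08) and Kdr (-0.33 ± 0.09) lower and Tek and Cdh5 not past the threshold. No measured marker of these 3 lists outside the set passed as higher in the ligation over sham reading with median centring, at limma's adjusted or unadjusted p (0 at either). At the adjusted p 11.7% of all genes passed as higher and 15.4% as lower, and nothing is read from these counts. By the Cy5 over Cy3 reading, Tnf (0.44, adjusted p = 0.000208), Cd53 (0.27, adjusted p = 0.00542) and Ece1 (0.84, adjusted p = 5.48e-06) passed as higher. In that reading Spp1 (-0.41), Cdh5 (-0.37), Tek (-0.41), Lpl (-0.52) and Slc2a4 (-0.22) passed as lower, and Kdr (-0.15) and Col1a1 (-0.057) did not pass. There 45.2% of all genes passed as higher and 32.8% as lower. The measured marker of cholangiocytes was Spp1, and that of stellate cells was Col1a1 (-0.23 ± 0.07, adjusted p = 0.0296). The calls of Cd53, Kdr and Col1a1 were each lost when single arrays were left out, and with upper-quartile centring (adjusted p = 0.135, 0.164 and 0.229). What part cell numbers have in the value of Fabp5 was not tested.

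The genes closest to each member were found by the root mean square distance over the 4 centred values, which is the same without centring and in either reading of the ratio. Scd was closest to the annexin Anxa5 (0.25), Cyp2u1 (0.26) and the nucleolar protein Npm1 (0.27). Fasn was closest to the chaperonin subunit Cct5 (0.071), the stress granule protein G3bp1 (0.088) and the kinase Mapk6 (0.12). Lipc was closest to the protein kinase A inhibitor Pkib (0.18), the outer mitochondrial cytochrome Cyb5b (0.19) and the kinase Hipk3 (0.20). Fabp5, with the highest ligation value of all named genes, was further from its closest genes. These were Cyp2c22 at 0.44, Cavin3 at 0.55 and Anxa5 at 0.70.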

How the data were processed

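Both pools of liver RNA were hybridised to each of 4 arrays. Each array has 1 deposited log ratio per probe, used as the authors gave it and treated here as log2. Scanning, background correction and normalization are not stated, nor are log base and direction. The dye term was planned as a test of the members and is given as a description, since it was not independent of their choice. Natural logarithms would make every value larger. No intensities were used, so signal over background is unknown and the number of arrays limits the precision.

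Of 1936 probes, 1432 had 1 symbol, 19 several and 485 none. The 288 spots at 18 positions unnamed in all 16 print blocks were left out as likely control spots. Symbols were checked against RefSeq (GRCr8), where 1429 matched. Arrays were centred on their medians, probes of a gene averaged, and a ligation and a dye term fitted with limma 3.58.1 in R 4.3.3, adjusted by Benjamini-Hochberg over 1174 features. Each term had 2 residual and 10.4 prior degrees of freedom. The fit was tested on data simulated with independent normal noise and the fitted dye terms. Such data cannot test the direction of the ratios, the zero point or the pooling. Folds are powers of 2 of the mean.

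Named genes were all members, listed genes past adjusted p under 0.05, up to 4 others per list, and the 3 closest genes of Fabp5, Scd, Fasn and Lipc. Measured cell type markers were added. Members and lists were chosen with earlier results of these data known. Alternatives covered the zero point, scaling, direction, log base, probes, spots and arrays.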

Additional observations from a re-analysis of the deposited data

Results flagged for a closer look

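Of 59 sets of 4 array values checked for a single array far from the rest, 2 were picked out, both on the deposited scale, and chance picks out about 1 in 20 such sets. Lipc stood at -0.80 on array 4, while arrays 1 to 3 lay between -1.26 and -1.19. Fabp7 stood at -0.32 on array 2, while the other 3 lay at -0.63.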

How the results depend on the processing

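Both pools lie on every array, so each log ratio already pairs ligation with sham. No further pairing was possible, since the labels give no second group with matching replicate numbers.
Of 126 values of the 7 genes under alternatives, 115 kept their sign and moved by less than the SD over the 4 arrays. That SD includes the swing between dye orientations and is a wide limit, 0.61 for Fasn and 0.74 for Lipc. Fasn at 0.12 without centring stayed within it. So did Scd at 0.40 with ligation in Cy3 and Lipc at -0.13 with ligation in Cy5. The median of probes could not move members with 1 or 2 probes. Leaving out each array in turn, with both dye orientations weighted equally, gave 1.59 to 1.66 for Fabp5, 0.36 to 0.63 for Fabp4 and 0.39 to 0.45 for Fabp3. The ranges were -0.25 to -0.098 for Fabp7, 0.85 to 1.00 for Scd, 0.48 to 0.52 for Fasn and -0.88 to -0.60 for Lipc.
Without centring Fabp4 was at 0.12, Fabp3 at 0.039, and probe 1513 of Fabp5 at 0.97. Natural logarithms gave 2.35 for Fabp5 and 0.61 for Fabp3. The arrays with ligation in Cy5 alone put Fabp7 at 0.47, and those with it in Cy3 put Fasn at -0.032. Read as Cy5 over Cy3, Fabp5 was at 0.46, Fabp3 at 0.11, Fabp4 at -0.24, Fabp7 at 0.65 and Lipc at 0.60. Probe 1176 of Fabp3, close to 0, was at 0.063 with each array centred on probes whose dye term lay in its top 25% (upper-quartile centring, an alternative chosen after seeing the data) and at 0.012 with print-block centring.
Over all genes, 260 passed in the ligation term (112 higher, 148 lower) and 747 in the dye term (433 and 314). Without centring the counts were 802 (11 higher, 791 lower) and 714 (5 and 709). Read as Cy5 over Cy3 they exchanged places, 747 (433 and 314) for ligation and 260 (112 and 148) for dye. With upper-quartile centring 124 were higher and 88 lower for ligation, and 5 and 716 for dye. Leaving out an array gave 191 to 240 ligation calls, 74 to 117 higher (74 without array 4) and 103 to 151 lower, and 675 to 725 dye calls, 388 to 422 and 271 to 303.
Among listed and marker genes, values turned to the other side of 0 without centring for Dgat1 (-0.23), Fads2 (-0.20), Lpl (-0.37), Crabp2 (-0.33), Pparg (-0.28), Nfyb (-0.35), Spp1 (-0.25), Cdh5 (-0.29), Ttr (-0.13), Tf (-0.014), Apoa1 (-0.0039), Apob (-0.28) and Serpina1 (-0.18). Read as Cy5 over Cy3 they did so for Scd2 (0.54), Me1 (-0.36), Lpl (-0.52), Cd36 (0.085), Acsl1 (0.61), Crabp2 (-0.51), Pparg (-0.54), Rxra (0.54), Nr1h4 (0.16), Nfyb (-0.79), Cd53 (0.27), Tnf (0.44), Spp1 (-0.41), Cdh5 (-0.37), Ece1 (0.84), Serpina1 (-0.19), Pkib (0.76), Cyb5b (0.60) and Hipk3 (0.57). The shift of the zero point and the exchange of the terms are built into these alternatives. Other causes were not tested. Genes past the threshold in neither setting were not counted as turned. Over all 574 values of named genes outside the set, 33 lost their call, 11 gained one and 32 turned. Of 84 distances between a member and its closest genes, 6 moved by over 1.5 times. Quantile normalization gave 0.76 for Fabp5 and Cyp2c22 and 0.97 for Fabp5 and Cavin3. Print-block centring gave 0.13, 0.17 and 0.18 for Fasn and its 3 genes and 0.41 for Lipc and Hipk3.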

Other observations

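In the ligation over sham reading, the spread of ligation values among the 958 genes widened with the dye term. Genes were ordered by centred dye term and cut into 4 bins of 239 or 240. In bin 1, with the lowest dye terms, the ligation values had an SD of 0.08 (0.0796), and 2.08% passed limma's adjusted p. In bins 2 to 4 the SD was 0.23, 0.30 and 0.48, and 21.8%, 36.0% and 48.8% passed. In bin 1, 0 of 240 genes reached 1.5-fold in size, against 37 of 240 in bin 4. Scd, Fasn, Fabp7 and Lipc were in bin 4, where from the top Scd ranked 3, Fasn 10 and Fabp7 152, and Lipc ranked 19 from the bottom. In bin 3 Fabp5 ranked first and Fabp3 ranked 10 of 239 genes. Fabp4 was in bin 2 and ranked 6 of 239 there. The 2 terms exchange in the Cy5 over Cy3 reading, and the widening was not seen. In 4 bins of that reading's dye term its ligation values had an SD of 0.37, 0.43, 0.43 and 0.41, and 78.3%, 79.5%, 78.7% and 75.4% passed. There Fabp7 and Lipc were in bin 1, ranked 73 and 83 of 240 from the top. The other members were in bin 4, with Fasn at rank 83, Scd at 84, Fabp5 at 94, Fabp3 at 152 and Fabp4 at 205 of 240. The dye terms of the 2 Fabp3 probes differed by 1.24, a difference reached by 12 of 261 genes with 2 probes (4.6%).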
